A study of Mus musculus with 120 samples.

Results

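The Bcl2 family genes examined here were 10 named genes among the 46078 gene identifiers of the tables: Bcl2, Bcl2l1, Mcl1, Bcl2a1b and Bcl2a1d on the survival side, the pore formers Bax and Bak1, and the BH3-only genes Bcl2l11, Bbc3 and Pmaip1. They were chosen by name, and their identifiers were matched to symbols. Their levels were followed in 120 single mouse group 2 innate lymphoid cells (ILC2) before stimulation, around the onset of cytokine secretion and later. Bcl2l1 and Bcl2a1d had 0 reads in the 10 cells taken before stimulation, whereas 60 and 53 of the 110 stimulated cells held a read. Bcl2l11 had a read in 1 of the 10 cells before stimulation, in 16 of 22 cells at 30 min after secretion onset, 4 of them with a single read, and in 1 of 22 activated cells. Bcl2 had a read in 8 of the 10 cells before stimulation and in 6 of 22 activated cells.

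Proteins of this family set whether a cell releases cytochrome c from its mitochondria and dies by apoptosis. Bax and Bak1 form pores in the outer mitochondrial membrane, the survival proteins bind and restrain them, and the BH3-only proteins relieve that restraint when a cell is stressed or loses its growth factors. In lymphocytes, cytokines of the IL-2 family sustain survival through Bcl2 and Mcl1, NF-kB signalling is known to induce Bcl2l1 and Bcl2a1, and Bcl2l11 (Bim) limits the life of activated cells. ILC2 are tissue lymphocytes that answer IL-33, an alarm cytokine released by damaged cells, by secreting interleukin (IL) 13 and IL-5.

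All cells were wildtype C57BL/6 ILC2, sorted as c-Kit+ Sca-1+ cells without lineage markers from mesentery pooled from 20 mice, cultured, and stimulated with IL-2 and IL-33 unless taken before stimulation. The culture also held IL-2, per the methods, so cells before stimulation were not free of that cytokine. Secretion of 1 cytokine, called the index, was imaged live, and each index, IL-13 or IL-5, has 60 cells: 5 before stimulation, 11 each at 30, 60 and 90 min after secretion onset, 11 activated (secreting the index cytokine) and 11 silent (not seen to secrete it) cells, the last 2 kinds recovered at 8 h of stimulation. The labels tie no cell to an animal or culture, so each of the 12 groups was treated as 1 sample, and no test between groups was made. Levels are the summed reads of each group as counts per 1e+06 gene reads (CPM), with exact Poisson 95% intervals that cover counting error only, since reads carry no molecular identifiers. Titles hold 2 dates per index, with all cells before stimulation on the first, so date and stimulation cannot be told apart for the second date. The indexes share no title date, so index and date cannot be told apart either.

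Cells held a median of 254001 gene reads, with a range of 65 to 785198. In 6 cells the total was under 84667, of which 3 were nearly empty: 1 at 30 min, 1 at 60 min and 1 silent cell, all of the IL-5 index. No count past 2-fold and no log2 ratio given here moved out of its limits when these 6 cells were left out. All 15 ILC2 markers listed had reads, among them Gata3 in 116 and Il1rl1, the IL-33 receptor, in 113 cells. The least widely detected were Il17rb (13 cells), Areg (14), Arg1 (22), Il7r (46) and Thy1 (53). Of the 6 T cell markers, Cd4 and Cd8a were at 0, and summed levels ran from 0 to 1195 CPM, mostly Cd3g. Cd3g stood at 1128 and 1195 CPM before stimulation (IL-13 and IL-5 index) and at 0 in activated cells of both indexes. In silent cells it was at 505 and 28.4 CPM. At 30, 60 and 90 min it was at 180, 0 and 9.61 CPM (IL-13) and 20.3, 163 and 214 CPM (IL-5). The part of T cell markers in the results was not tested. Reads of B cell markers were 0, those of the 4 myeloid markers came from 1 cell, and mast cell and basophil markers, mainly Fcer1a, summed to 0 to 326 CPM with Mcpt4, Mcpt8 and Cma1 at 0. Fcer1a was at 301 and 37.1 CPM before stimulation, 0 at 30 min and in silent cells of both indexes, and 48.5 and 233 CPM in activated cells. Of 4 stromal and fat cell markers Pecam1 had reads, in 77 cells, with 0 and 5.77 CPM before stimulation, 38.5 and 175 at 30 min, 82.0 and 134 at 60 min, 2.82 and 1.61 in activated and 80.9 and 11.1 in silent cells. The part of either in the results was not tested.

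The 2 Bcl2a1 genes (also called A1) need to be seen as sequence, because they are close copies of one another and of Bcl2a1a, all on chromosome 9. Below are the last 150 coding bases of each, from the GENCODE vM21 transcripts on GRCm38, read 5′ to 3′ along the gene and joined across the intron inside the stated span. Capitals mark the 3 positions at which any of the 3 copies differs.
Bcl2a1a, chr9:88957420-88962270, plus strand: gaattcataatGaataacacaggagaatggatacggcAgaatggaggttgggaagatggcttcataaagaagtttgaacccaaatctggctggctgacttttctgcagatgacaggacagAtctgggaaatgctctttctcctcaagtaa
Bcl2a1b, chr9:89199729-89207680, plus strand: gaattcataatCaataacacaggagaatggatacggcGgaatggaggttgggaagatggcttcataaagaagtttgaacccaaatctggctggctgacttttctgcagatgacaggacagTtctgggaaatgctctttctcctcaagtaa
Bcl2a1d, chr9:88723434-88731350, minus strand: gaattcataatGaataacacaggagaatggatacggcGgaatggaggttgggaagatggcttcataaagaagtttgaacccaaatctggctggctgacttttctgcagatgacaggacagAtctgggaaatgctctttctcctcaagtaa
Over the whole coding sequence of 519 bases, Bcl2a1b and Bcl2a1d differ at 6 positions (98.84% identity), and Bcl2a1a differs from them at 11 and 7. Of all 91-base windows, the read length used, 38.9% of those in the Bcl2a1b transcript and 38.9% of those in Bcl2a1d occur in no other gene's transcripts. Reads from the remaining windows could not be placed uniquely, and 28.7% of all tallied alignments were not unique. Levels of Bcl2a1b and Bcl2a1d are therefore uncertain, and how the copies share them is too. Bcl2a1a had 20 reads in all and Bcl2a1c 58. The same windows were unique for Bcl2, Bcl2l1, Bcl2l11, Mcl1, Bak1, Bbc3 and Pmaip1 (100.0%), and for Bax 94.2% were, the others lying in Gm45808, which overlaps Bax on the same strand. Genes annotated on the opposite strand overlap Bcl2 (D630008O14Rik), Bcl2a1d (Gm10634) and Bak1 (Ggnbp1), and since the strand setting of the counting is unknown, reads of such pairs cannot be told apart where they overlap.

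**Figure D1:**
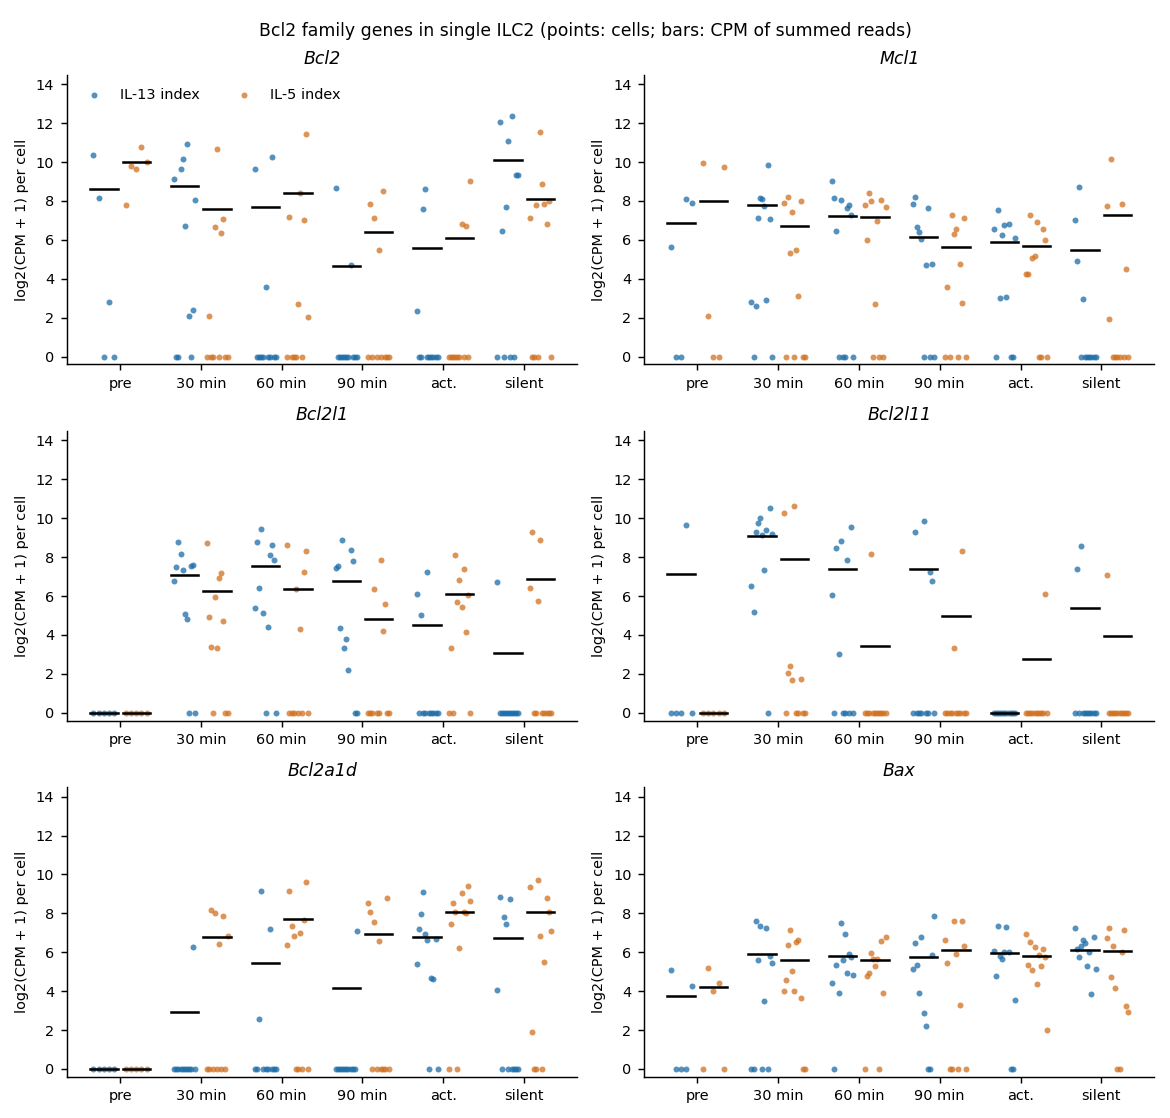
Expression of 6 Bcl2 family genes in each of the 120 cells, as log2(CPM + 1) on the vertical axis, by state and index (blue IL-13, orange IL-5), where pre is before stimulation and act. is activated. Points are cells and black bars the CPM of reads summed over the cells of a group. Bcl2l1 and Bcl2a1d lie at 0 in all 10 cells before stimulation, and Bcl2l11 is at 0 in all 11 IL-13 index cells that were activated.

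Bcl2, the founding survival gene of the family (ENSMUSG00000057329, chr1:106538178-106714274, minus strand, GRCm38), was lower in activated than in silent cells and than in cells before stimulation in both indexes. In the IL-13 index its level was 389 CPM before stimulation (95% interval 350 to 430), 443 at 30 min, 206 at 60 min, 24.0 at 90 min, 47.3 in activated and 1096 in silent cells (1057 to 1137). The highest level was thus in stimulated cells not seen to secrete IL-13. Their secretion of other cytokines is not given by the labels. With IL-5 as the index the levels were 1023 CPM before stimulation (967 to 1082), then 191, 342 and 83.6 at 30, 60 and 90 min, 67.0 in activated cells (58.9 to 75.8) and 272 in silent cells. Here the level before stimulation was the highest of the 6.

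The cells behind these sums were uneven. Before stimulation, the 5 IL-13 index cells held 1324 (326 of 375 reads in replicate 1), 284, 0, 5.93 and 0 CPM of Bcl2, and those of the IL-5 index 217, 874, 808, 1729 and 1036 CPM. All 5 of the IL-5 index and 3 of 5 of the IL-13 index thus held a read. Of the activated cells, 3 of 11 held one in each index, with a median of 0 and a highest value of 393 CPM (IL-13) and 526 CPM (IL-5). Of the silent cells, 7 of 11 held one in each index, with medians of 206 and 139 CPM and highest values of 5202 and 3040 CPM. The values of single cells overlapped between the groups of every pair of states compared here.

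Activated cells had 23.2-fold less Bcl2 than silent cells in the IL-13 index (log2 ratio -4.54, counting interval -4.78 to -4.30) and 4.06-fold less in the IL-5 index (-2.02, -2.23 to -1.82). Leaving out any 1 cell moved these to -5.83 to -3.88 and -3.59 to -0.64, the last without silent replicate 6, so the 2-fold difference of the IL-5 index rested on that cell. On the first and second title dates the log2 ratios were -2.55 and -9.71 (IL-13) and -5.21 and -2.10 (IL-5), the same direction on each. The values -9.71 and -5.21 are bounds, since activated cells had 0 reads on those dates. Mitochondrial genes held 1.43% of the reads of activated and 2.63% of those of silent cells where IL-13 was the index. Where IL-5 was the index these shares were 1.46% and 1.48%. Before stimulation they were 2.01% (IL-13) and 2.23% (IL-5). The part of the mitochondrial share in the Bcl2 differences was not tested. Against cells before stimulation, activated cells had 8.22-fold less (-3.04) and 15.3-fold less Bcl2 (-3.93). The first of these was -0.53 without replicate 1 before stimulation. At 30 min the log2 ratio of Bcl2 to cells before stimulation was 0.19 in the IL-13 index, which rested on single cells: it was 2.70 without replicate 1 before stimulation and -0.59 without replicate 7 at 30 min. In the IL-5 index Bcl2 was 5.37-fold lower at 30 min (-2.42), with -4.62 without replicate 6 at 30 min and -5.14 on the first title date. It was 2.85- to 9.36-fold higher at 30 min than in activated cells (1.51 in the IL-5 and 3.23 in the IL-13 index), although the IL-5 value was -0.69 without replicate 6 at 30 min.

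Bcl2l1, which encodes Bcl-xL (ENSMUSG00000007659, chr2:152780668-152831728, minus strand), went from 0 reads before stimulation to a read in most cells at onset. None of the 5 cells of either index held a read before stimulation, and 0 of 5 cells allows a share of up to 60.0% in each, taking 3 cells as the limit of a count of 0 (52.2% by the exact binomial interval). The totals of 964383 and 1212183 gene reads put 3 reads, the floor used, at 3.11 and 2.47 CPM. At 30, 60 and 90 min the IL-13 index had 135 (122 to 150), 187 and 109 CPM, with 9 of 11 cells holding a read each time. The IL-5 index had 75.2 (66.4 to 84.8), 82.0 and 27.3 CPM, in 8, 5 and 4 of 11 cells. With the 0 reads before stimulation set to 3, levels at 30 min were 43.5-fold (IL-13) and 30.4-fold (IL-5) higher. Their log2 counting intervals began at 5.14 and 4.62, and leaving out any 1 cell kept the log2 bounds at 4.26 or above.

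Activated cells held 21.6 CPM of Bcl2l1 in the IL-13 index, in 3 of 11 cells, and 68.6 CPM in the IL-5 index, in 8 of 11. Silent cells held 7.56 CPM, all 20 reads in replicate 1, and 117 CPM in 4 cells, of which replicate 2 gave 63.7% of the reads. The ratio of 30 min to activated cells was 6.26-fold in the IL-13 index (log2 2.65, 2.27 to 3.04) and 1.10-fold in the IL-5 index (0.13, -0.12 to 0.39), whose interval includes 0. The IL-13 value was 4.03 without activated replicate 6, and 3.63 and 1.70 by title date. The IL-5 value was -0.25 on the second date and at lowest -0.53 without 1 cell. Activated cells lay 2.86-fold above silent cells in the IL-13 index (1.52) and 1.70-fold below them in the IL-5 index (-0.77). Without activated replicate 6 the first was 0.13, and without silent replicate 2 the second was 0.51, so the first was then under 2-fold and the second changed sign. On the first and second title dates the first was -0.20 and 3.75, the latter a bound with 0 reads in silent cells. The second was 0.28 on the second date. The difference between the indexes was not tested.

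The annotation gives Bcl2l1 3 start sites in the RefSeq promoter table (GRCm38.p6), and 3′ reads do not say which was used. The 250 bases before 1 of them are shown because they hold a match to the kappa B consensus, the motif bound by NF-kB, in capitals (chr2:152830718-152830967, minus strand, 5′ to 3′).
Bcl2l1: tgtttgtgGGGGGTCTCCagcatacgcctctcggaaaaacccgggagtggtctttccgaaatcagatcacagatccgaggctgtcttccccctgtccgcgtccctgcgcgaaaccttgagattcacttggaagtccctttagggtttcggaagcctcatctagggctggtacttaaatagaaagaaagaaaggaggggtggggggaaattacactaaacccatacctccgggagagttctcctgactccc
The match begins 242 bases before the start. Searched on both strands in windows from 250 bases before to 50 after a start, the consensus was found in 2 of the 14 windows of 9 of these genes, 1 of Bcl2l1 and 1 of Bbc3, and in 8.46% of all 32851 windows of the table. A match is a description of letters and not a binding site.

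Mcl1, a short-lived survival protein (ENSMUSG00000038612, chr3:95658788-95663176, plus strand), had a read in 77 of the 120 cells and was present in every group. The IL-13 index had 114 CPM before stimulation (93.7 to 137), 217, 149 and 69.6 at 30, 60 and 90 min, 58.2 in activated and 43.8 in silent cells. The IL-5 index had 258 CPM (230 to 288), then 104, 145 and 49.2, and 50.4 and 156. In both indexes 30 min cells thus held more than activated cells, 3.73-fold (1.90) and 2.07-fold (1.05). Without replicate 9 at 30 min these were 0.86 and 0.73, under 2-fold. Against cells before stimulation the log2 ratios at 30 min were 0.93 and -1.31. The first was -0.11 without replicate 9 at 30 min, and -0.28 on the first title date, the 1 date with cells before stimulation. The second was -0.33 without replicate 5 before stimulation, which carried 58.1% of that group's Mcl1 reads. The share of cells with a read was 8 of 11 in activated cells of both indexes and 4 and 5 of 11 in silent cells.

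Bcl2a1d and Bcl2a1b, A1 genes that restrain BH3-only proteins, were at 0 reads in all 10 cells before stimulation. Bcl2a1d (ENSMUSG00000099974, chr9:88723285-88731914, minus strand) had 6.72, 43.4 and 16.8 CPM at 30, 60 and 90 min in the IL-13 index, then 111 CPM (99.6 to 123) in activated and 106 in silent cells. The IL-5 index had 110, 211 and 122 CPM, then 269 (253 to 286) and 264. Activated cells held at least 35.6-fold (IL-13) and at least 108.7-fold (IL-5) more than cells before stimulation. The read was in 9 of 11 activated cells of each index, against 5 and 8 of 11 silent cells.

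The log2 ratios of Bcl2a1d between activated and silent cells were 0.07 (-0.16 to 0.30) and 0.03 (-0.11 to 0.16), with intervals for counting error only. These values near 0 averaged title dates of opposite direction, at 0.55 and -1.23 in the IL-13 and -1.08 and 0.83 in the IL-5 index. Leaving out 1 cell gave -0.64 to 0.85 and -0.20 to 0.52. In the IL-13 index 30 min cells held 16.5-fold less than activated cells (-4.04), in 1 against 9 cells, and in the IL-5 index 2.44-fold less (-1.29), in 5 against 9 cells. The first was a bound of -6.50 without replicate 10 at 30 min, which held all 18 reads of that group. By title date it was -6.25, a bound with 0 reads at 30 min, and -1.65. The second was -0.20 and -1.93. Bcl2a1b (ENSMUSG00000089929, chr9:89199209-89207827, plus strand) was seen in fewer cells, 22 in all, with 74.5 CPM in activated IL-13 index cells and 87.8 CPM at 30 min in the IL-5 index as its highest levels. Of those, replicate 9 gave 81.9% of the reads of the first and replicate 3 gave 51.0% of the second. The exons of Gm29094 overlap Bcl2a1b on its own strand. With the reads of all 4 A1 genes summed, activated cells lay above cells before stimulation by log2 bounds of 5.90 and 6.85.

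**Figure D2:**
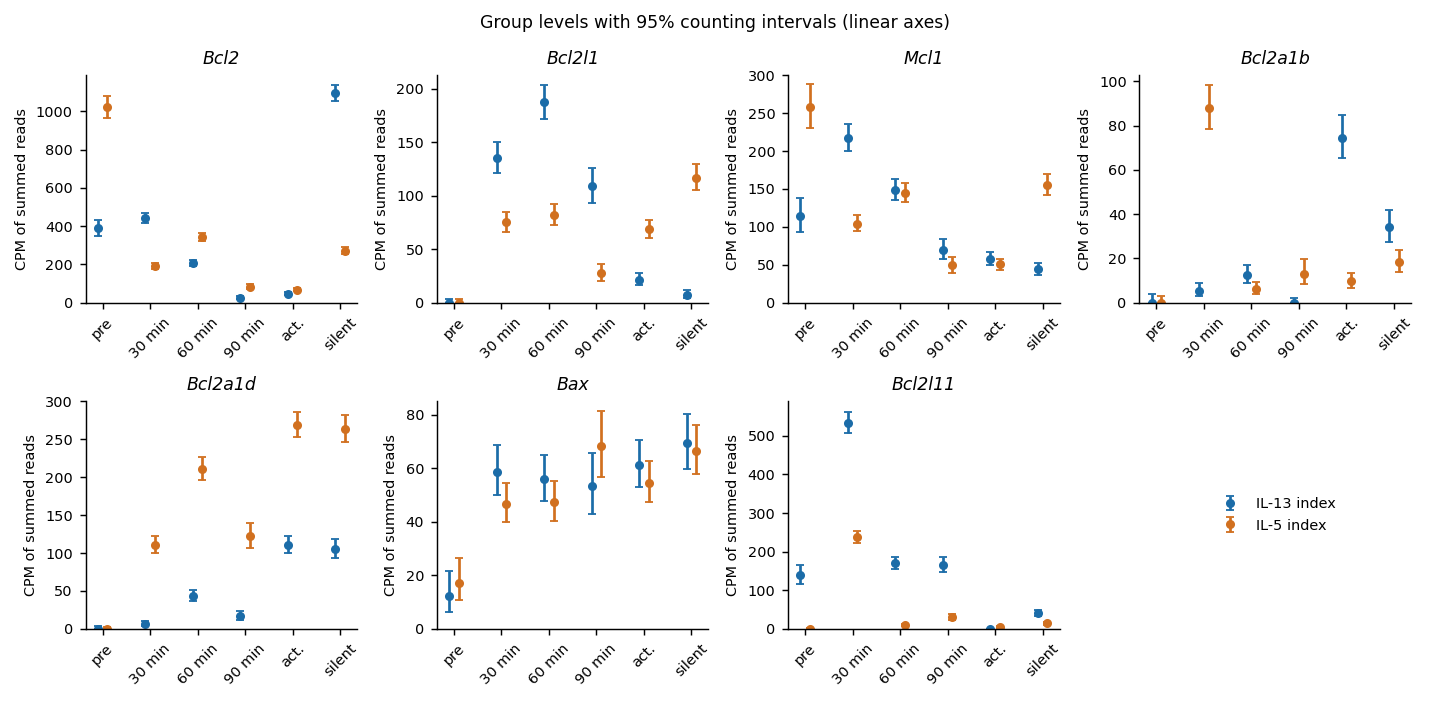
CPM of reads summed over the cells of each group, on linear axes, for the 7 genes whose mean over groups reached 10 CPM, by state and index. Points are group levels and bars are exact Poisson 95% intervals, which cover counting error only. Bcl2l11 is highest at 30 min in both indexes, and Bax lies between 46.7 and 69.5 CPM in every group after stimulation.

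Bax (ENSMUSG00000003873, chr7:45461697-45466898, minus strand) was the most widely detected of the 10 genes, with a read in 96 of 120 cells. Before stimulation it had 12.4 CPM (6.43 to 21.7, 12 reads) in the IL-13 and 17.3 CPM (10.7 to 26.5, 21 reads) in the IL-5 index. The 5 cells held 32.5, 0, 0, 0 and 18.5 CPM and 0, 35.9, 15.1, 20.5 and 0 CPM. After stimulation it lay between 46.7 and 69.5 CPM in all 10 groups, above both groups before stimulation. Values of single cells overlapped, and how many other genes had all 10 groups higher was not counted. Against cells before stimulation, 34.0% to 39.2% of the genes averaging 10 CPM or more were at least 2-fold higher. At 30 min Bax was 4.71-fold (2.24, 1.39 to 3.22) and 2.70-fold (1.43, 0.77 to 2.16) higher than before stimulation, in activated cells 4.93- and 3.16-fold and in silent cells 5.59- and 3.84-fold. None of these 6 log2 ratios was under 1.15 on leaving out any 1 cell, and on the first title date alone they ran from 1.63 to 2.85. Among the stimulated states compared, 30 min, activated and silent, the log2 ratios were between -0.28 and -0.07. Thus Bax showed 1 step between cells before and after stimulation and little difference between activated and silent cells, with intervals of -0.48 to 0.12 and -0.57 to 0.00 for activated against silent.

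Bak1 (chr17:27019810-27029009, minus strand), the other pore former, had 7 reads, all in 1 cell. At this depth it was not detectable in the other 119 cells. Bbc3, encoding Puma, had 185 reads in 12 cells. Its highest group level, 42.1 CPM before stimulation in the IL-5 index, came from replicate 4 with 49 of 51 reads. Pmaip1, encoding Noxa, had 10 reads in 1 activated cell of the IL-5 index. Both are BH3-only genes known as p53 targets. These 3 genes averaged under 10 CPM and enter no count given later.

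Bcl2l11, encoding the BH3-only protein Bim (ENSMUSG00000027381, chr2:128126038-128162547, plus strand), was highest at 30 min in both indexes and near 0 in activated cells. In the IL-13 index it had 139 CPM before stimulation, all 134 reads in replicate 4, then 534 (507 to 563), 170 and 166 CPM at 30, 60 and 90 min, 0 in activated and 41.2 CPM in silent cells. Cells with a read numbered 1 of 5, then 10, 6, 4, 0 and 2 of 11 in the same order. Levels in the IL-5 index were 0, then 238 (222 to 255), 9.66 and 30.6 CPM, 5.89 and 14.4 CPM. Cells with a read were 0 of 5, then 6, 1, 2, 1 and 1 of 11.

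The 30 min cells of the IL-13 index ran from 0 to 1480 CPM with a median of 585 CPM, and the top cell gave 24.3% of reads. Replicates 9, 2, 1 and 7 were the lowest, at 0, 35.1, 90.0 and 159 CPM, and the other 7 cells held 554 CPM or more. The median of the IL-5 index was 2.26 CPM. There 2 of the 6 cells with a read had at least 5 reads, and replicate 6 gave 61.1% of the reads. Bcl2l11 at 30 min was 3.84-fold above cells before stimulation in the IL-13 index (1.94, 1.69 to 2.21). Without replicate 4 before stimulation, where no read remained, it became a bound of 7.15. For the IL-5 index it was at least 96.2-fold above (log2 6.59; 5.37 without replicate 6). With the cells before stimulation of both indexes as the reference, which include the cell with 134 reads, that log2 ratio was 1.95.

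Against activated cells, 30 min cells of the IL-13 index held 569-fold more Bcl2l11 with the 0 reads of activated cells set to 3 (log2 counting interval from 8.85). In the IL-5 index they held 40.4-fold more (5.34, 4.73 to 6.02). The 0 of 11 activated IL-13 index cells allows a share of up to 27.3% by the same limit (28.5% by the exact interval), and 3 reads there are 0.939 CPM. The log2 ratios were 7.86 and 8.40 by title date in the IL-13 index, and 6.80 and 4.66 in the IL-5 index. All but the last are bounds, since activated cells had 0 reads on those dates. Leaving out any 1 cell kept the ratios of the IL-13 and IL-5 index at 8.88 or above and 4.12 or above. The direction was thus the same in both indexes, on both dates and without any single cell. Activated against silent cells gave a log2 bound of -5.45 in the IL-13 index (2 silent cells with reads) and -1.28 in the IL-5 index, where each group had 1 such cell. Without 1 of those 2 cells the second value ranged from -4.03 to 2.43.

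**Figure D3:**
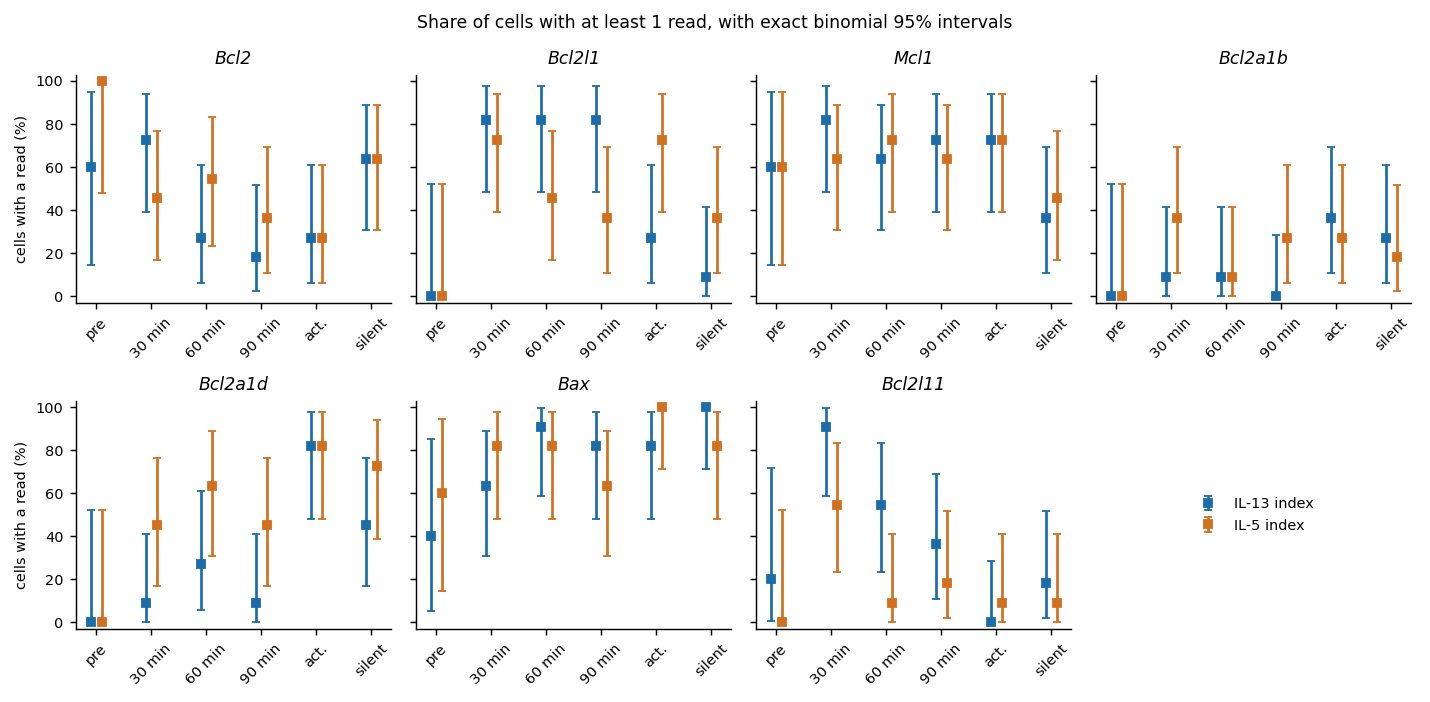
Share of cells with at least 1 read of each gene, in percent, by state and index. Squares are shares of 5 (pre) or 11 cells and bars exact binomial 95% intervals. Bcl2l1 and Bcl2l11 go from 0 or 1 of 5 cells to 6 to 10 of 11 at 30 min, Bcl2l11 returns to 0 and 1 of 11 in activated cells, and Bcl2a1d reaches 9 of 11 there.

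The share of cells holding a read was compared with that of all 6620 genes that averaged 10 CPM or more over the 12 groups. At 30 min against before stimulation, Bcl2l1 and Bcl2l11 were higher by at least 50 percentage points in both indexes, which 0.967% of the 6620 genes were. With each cell thinned to 100000 gene reads, Bcl2l11 no longer met this, since 3 of 10 cells of the IL-5 index then held a read, and Bcl2l1 still did. In activated cells against before stimulation, Bcl2a1d met it, as 3.81% of genes did, also after thinning. No other member met it in these 2 comparisons, and none met it in either direction in silent cells against before stimulation, at 30 min against activated or in activated against silent cells. At 30 min against activated, 0.136% of genes were higher and 0.65% lower by this rule. The rule was set after the shares had been seen, so these counts describe and do not test. Activated cells also had the most genes detected at equal depth, with medians of 2924 and 2999 per thinned cell against 1918 and 2236 before stimulation. The part of that in the Bcl2a1d share was not tested.

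Bcl2l1 and Bcl2l11 were each seen in most cells at onset, and the cells holding both were counted. Of the 11 cells of the IL-13 index at 30 min, 8 held reads of both, 1 of Bcl2l1 alone and 2 of Bcl2l11 alone, so that 8 of the 9 cells with Bcl2l1 held Bcl2l11 where 10 of all 11 did. Of the 10 cells of the IL-5 index that were not nearly empty, 5 held both, 3 Bcl2l1 alone, 1 Bcl2l11 alone and 1 neither, so that 5 of the 8 with Bcl2l1 held Bcl2l11 where 6 of 10 did. In 3 of those 5 cells Bcl2l11 had a single read. These shares are close to those over all cells of each group. In activated cells the pair was seen in 0 and 1 of 11. Bcl2a1b and Bcl2a1d were held together by 17 of 114 cells, Bcl2a1b alone by 4 and Bcl2a1d alone by 36. Summed over the 5 survival genes, 30 min cells of the IL-13 index held 807 CPM, and over the 5 pore and BH3-only genes 611 CPM. Cells before stimulation held 503 and 151 CPM, activated cells 313 and 64.5 CPM and silent cells 1288 and 111 CPM. Sums in the IL-5 index were 1281 and 59.4 CPM before stimulation, 568 and 295 CPM at 30 min, 465 and 66.5 CPM in activated and 826 and 90.4 CPM in silent cells. The highest sum of survival genes was thus that of silent cells with IL-13 as the index and that of cells before stimulation with IL-5, and that of the other 5 genes at 30 min in both. Of the sums of pore and BH3-only genes at 30 min, Bcl2l11 held 534 and 238 CPM. Of the highest survival sums, Bcl2 alone held 1096 CPM in silent cells (IL-13) and 1023 CPM before stimulation (IL-5). In the silent cells, replicate 8 gave 42.2% of the Bcl2 reads.

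**Figure D4:**
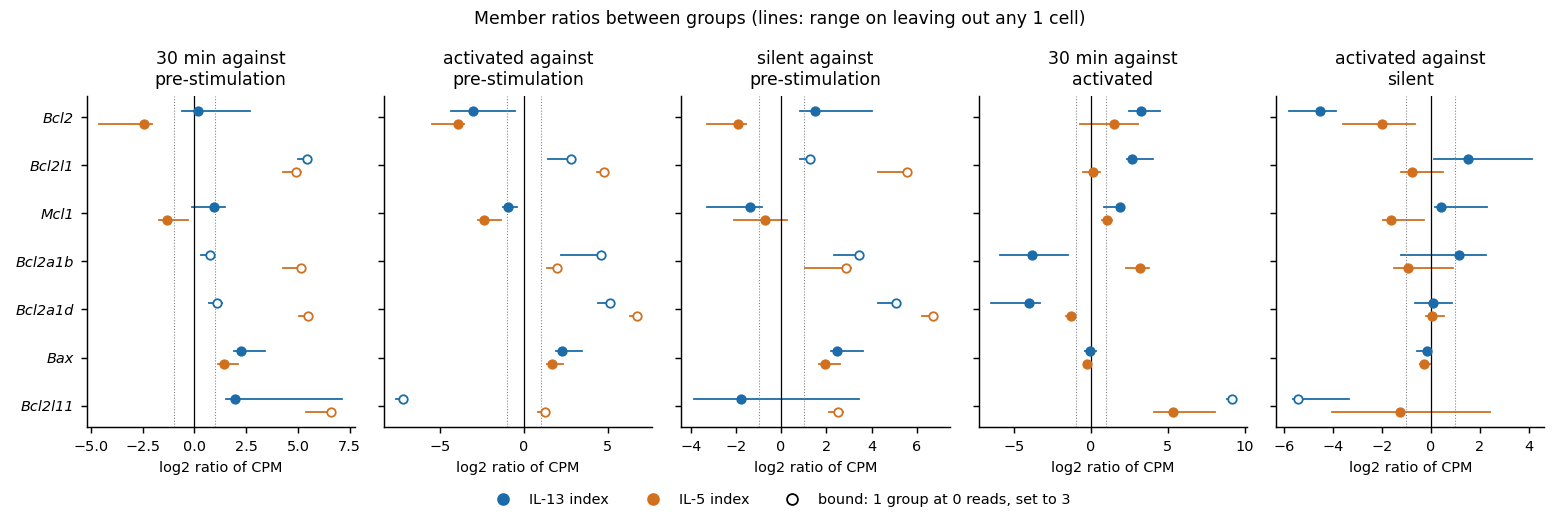
Log2 ratio of CPM for the 7 genes that averaged 10 CPM or more, in the 5 comparisons of each index. Points are the ratios, open where 1 group had 0 reads and was set to 3 reads (a bound), lines span the values on leaving out any 1 cell, and dotted lines mark 2-fold. Bcl2 is left of 0 in activated cells against cells before stimulation and against silent cells, and Bcl2l11 is far right of 0 at 30 min against activated cells.

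Counts past 2-fold over these 7 genes were read against all 6620 genes, of which 22.5% to 39.2% were past 2-fold upwards and 22.7% to 32.5% downwards. At 30 min against before stimulation, 4 of 7 were higher and 0 lower in the IL-13 index, where 34.0% and 27.3% of genes were. The IL-5 index had 5 higher and 2 lower, against 38.6% and 25.3%. For activated cells against cells before stimulation the counts were 4 higher and 2 lower (IL-13; 37.3% and 27.4% of genes) and 5 and 2 (IL-5; 39.2% and 28.4%). For silent cells they were 5 and 2 (38.7% and 22.7%) and 5 and 1 (38.9% and 25.1%). Comparisons with cells before stimulation share those 5 cells in each index.

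At 30 min against activated cells, 4 were higher and 2 lower in the IL-13 index (27.4% and 32.5% of genes) and 4 and 1 in the IL-5 index (27.9% and 25.2%). For activated against silent cells, 2 were higher and 2 lower (25.9% and 31.8%), and 0 and 3 in the IL-5 index (22.5% and 26.6%). The 3 lower genes of the IL-5 index were Bcl2, Mcl1 and Bcl2l11. With 7 genes, a count of 4 or 5 differs by few genes from what the share of all genes gives, so the counts add little to the single genes. Medians of the 7 log2 ratios were 1.11 and 4.92 at 30 min against before stimulation, where all genes had 0.11 and 0.38. Each of these medians is the bound of 1 gene against 0 reads, Bcl2a1d with 18 reads in 1 cell and Bcl2l1 with 267 reads. Medians were 0.07 and -0.92 for activated against silent cells, where all genes had -0.13 and -0.08.

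The other genes of the pathway were followed as lists of their own. Genes averaging 10 CPM or more over the 12 groups are called measured, though others had reads too. In the order of the lists below, 18 of 20, 16 of 16, 14 of 15 and 11 of 16 genes had reads. Of 15 measured genes of the inhibitor of apoptosis and death receptor list, 11 (IL-13) and 12 (IL-5) were at least 2-fold higher at 30 min than before stimulation, 10 of them in both indexes, and 2 were lower in each. Over all 6620 genes 34.0% and 38.6% were higher, 16.5% in both, and 27.3% and 25.3% lower, 8.37% in both. The list's median log2 ratios were 2.41 and 2.75. Traf1, an adaptor of TNF receptors, went from 0 to 711 CPM in the IL-13 and from 106 to 716 CPM in the IL-5 index. Birc3, which encodes cIAP2, went from 10.4 to 275 and from 53.6 to 136 CPM. Cflar, the inhibitor of caspase-8, went from 76.7 to 188 and from 47.8 to 259 CPM. Tnfsf10, encoding the death ligand TRAIL, went from 0 to 124 and from 0 to 101 CPM. The genes past 2-fold lower in the IL-13 index were Birc5, which encodes survivin (374 to 0 CPM), and Mlkl, an effector of necroptosis (85.0 to 19.8 CPM). In the IL-5 index they were Xiap, an inhibitor of caspases (22.3 to 8.45 CPM), and Traf2 (200.5 to 94.9 CPM). Birc5 averaged 10 CPM or more only through its 374 CPM before stimulation, its next highest level being 12.1 CPM. Its lower level at 30 min was thus fixed by the group that let it pass. No gene of the list was past 2-fold lower in both indexes. In the other index Birc5 was at 0 CPM in both states and Xiap went from 22.8 to 11.6 CPM. Mlkl went from 0 to 47.6 CPM (IL-5) and Traf2 from 0 to 56.4 CPM (IL-13).

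Among 15 measured regulators of the family, 8 were higher and 3 lower at 30 min in each index, 5 higher in both. Of all genes, 34.0% and 38.6% were higher, 16.5% in both, and 27.3% and 25.3% lower. Rel, an NF-kB subunit, went from 1.04 to 1024 CPM and from 0 to 639 CPM, and Nfkb1 from 110 to 881 and from 161 to 1204 CPM. Myc went from 20.7 to 352 and from 105 to 351 CPM. Stat5a, which acts downstream of the IL-2 receptor, had 0 before stimulation in both indexes and 71.0 and 129 CPM at 30 min. Ddit3, a stress factor known to induce Bcl2l11, was lower, going from 125 to 56.0 and from 264 to 20.0 CPM.

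Of the 10 measured genes of the mitochondrial pore, apoptosome and caspase list, 1 was higher and 5 lower at 30 min in the IL-13 index (34.0% and 27.3% of all genes) and 4 and 3 in the IL-5 index (38.6% and 25.3%). In both indexes 1 was higher and 3 were lower, against 16.5% and 8.37% of all genes. Cycs, which encodes cytochrome c and also serves respiration, was the higher one, going from 492 to 986 and from 389 to 1931 CPM, and held 2156 and 2104 CPM in activated cells. Endog, a mitochondrial nuclease, Htra2, a mitochondrial protease, and the caspase gene Casp2 were the lower ones. Endog went from 93.3 to 25.4 and from 38.8 to 14.6 CPM, Htra2 from 42.5 and 53.6 CPM to 0, and Casp2 from 107 and 48.7 CPM to 0. Their reads before stimulation lay in 1 or 2 cells of each group. Of 16 other family genes 7 were measured, with 3 higher and 1 lower (IL-13) and 2 and 2 (IL-5), against the same shares of all genes. Bcl2l13 was higher in both, going from 0 to 20.5 and 22.2 CPM, in 3 and 2 cells. Bid, cleaved by caspase-8 to engage Bax, was at 0 before stimulation and at 10.6 and 39.9 CPM in activated cells. Bad was at 70.5 and 36.3 CPM before stimulation, with all 68 and 44 reads in 1 cell of each group, and at 0 at 30 min in both. Bmf, Hrk and Bok were at 0 reads throughout.

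**Figure D5:**
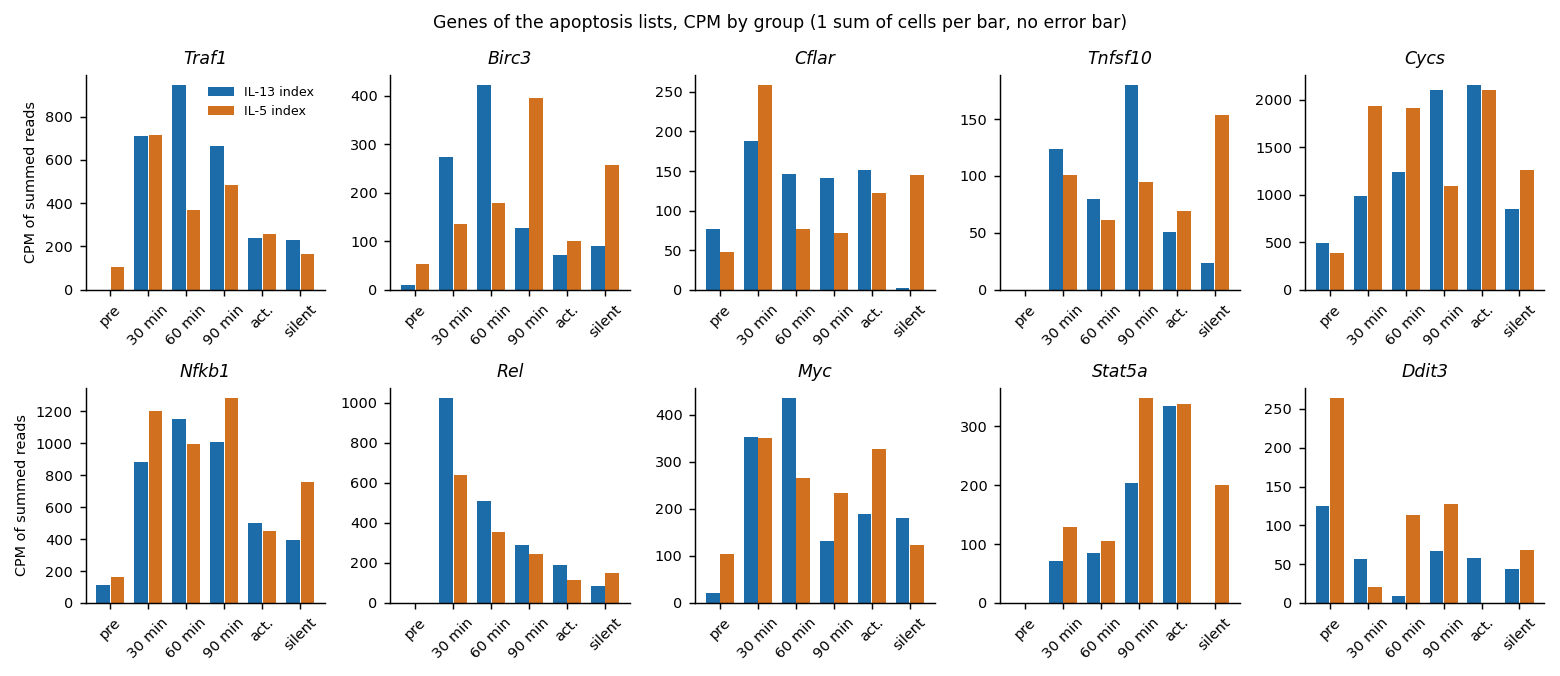
CPM of summed reads for 10 genes of the pathway lists by state and index, 1 bar per group and no error bar, on linear axes from 0. Rel is at 0 and 1.04 CPM and Traf1 at 0 and 106 CPM before stimulation, and at 30 min they reach 639 to 1024 and 711 to 716 CPM, and Ddit3 is higher before stimulation.

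Genes with a course most like those of the 4 members of highest mean CPM were sought over the 12 group levels on log2(CPM + 1), among 2658 genes averaging 50 CPM or more. Nearest to Bcl2 were Lrrfip1, Vamp8 and Ccdc12, with Pearson r of 0.93, 0.92 and 0.90. Among the nearest to Mcl1 were Adgre5 (0.84) and Rplp1 (0.83). Nearest to Bcl2l11 were Resf1 (0.89), Sde2 (0.87) and Tagln2 (0.87), and nearest to Bcl2a1d were Cct3 (0.95), Slc25a39 (0.94) and Nelfe (0.94). The 12 points share their scaling to library totals, and 2 of them rest on 5 cells each. Each r is given as a description of the nearest of many genes.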

How the data were processed

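The 120 libraries were 3′ libraries made with SMART-Seq v4 3′ DE kits, 1 per cell. The authors aligned reads to GRCm38 (mm10 in the submitters' notes, which also name TopHat2) with TopHat and deposited raw HTSeq counts per gene. The strand setting and annotation release are not given in the sources used here. The 5 HTSeq summary entries were left out of library totals, and 38.0% of tallied alignments lay in them. ERCC entries are not used here. Each cell's group was read from its source name and title.

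Counts were summed per group and scaled to CPM. Log2 ratios set a group under 3 reads to 3 reads and carry Clopper-Pearson 95% intervals of the split of reads. Genes with a mean of at least 10 CPM (6620) were compared at 2-fold. With 1 sample per group no test was made. Symbols matched 45143 of 46078 identifiers. Named genes are the 10 members, list genes past 2-fold the same way in both indexes (up to 4 of highest CPM per list and direction, of which those of 30 min against pre-stimulation and some activated cells' values are printed; Bmf, Hrk, Bok, Birc5, Mlkl, Xiap, Traf2, Gata3, Il1rl1 and the other markers were named after their values were seen), and the nearest genes by correlation; a few results are not reported here. The members and lists were chosen with earlier results of these data known. Scripts were tested on simulated data. Python 3.11.15, numpy 2.4.6, scipy 1.17.1, pandas 2.3.3, Biopython 1.88, R 4.3.3, edgeR 4.0.16 and DESeq2 1.42.0 (scaling factors) were used. Alternatives were other scalings, weights, filters, floors, title dates, thinning, summed A1 genes and leaving out cells.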

Additional observations from a re-analysis of the deposited data

Results flagged for a closer look

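Bcl2l11 in replicate 4 of the IL-13 index before stimulation stood at 794 CPM while the other 4 cells of that group were at 0, a gap as wide as the whole range of the group. The same cell held 278 CPM of Mcl1, the highest of its group, 5.93 CPM of Bcl2 and 0 of Bax. Of the 20 sets of 5 cells before stimulation (10 genes in 2 indexes), 12 were at 0 in all cells and 8 could be judged. On log2(CPM + 1) the Bcl2l11 value was the 1 that stood apart. On CPM, Bcl2 in replicate 1 of the IL-13 index (1324 CPM, a gap of 0.785 of the range) and Bbc3 in replicate 4 of the IL-5 index (167 CPM, 0.972) did too. Chance marks about 5% of sets of normally spread values, which sets with several cells at 0 are not.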

How the results depend on the processing

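No paired analysis was possible because replicate numbers follow accession order and pair no cells. Each group is 1 sum of 5 or 11 cells, so cell-to-cell spread enters only through the leave-one-out ranges, and low counts limit Bak1, Bbc3 and Pmaip1. Scaling by edgeR's TMM or DESeq2's size factors shifted the median of all genes by up to 0.47 (TMM, IL-5 index, activated against pre-stimulation). Of the member log2 ratios under an alternative, 568 stayed within their limits, 221 moved and 12, all of the 7 genes averaging 10 CPM or more and with a reported value past 2-fold, changed sign. Signs also changed in 27 alternatives of 13 values of these genes under 2-fold and in 12 of the 3 sparse genes, counted above as moved or within limits. The cause was not tested.

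Counts of the 7 genes past 2-fold moved as follows. In the IL-13 index, activated against pre-stimulation had 1 lower on leaving out 1 cell. Silent against pre-stimulation had 1 lower with the pre-stimulation cells of both indexes, 0 on the first title date and 0 on leaving out 1 cell. For 30 min against activated, 1 was lower with the A1 genes summed. Activated against silent had 0 higher on the first date and with a pseudocount of 10 CPM, and 1 on leaving out 1 cell or with the A1 genes summed. In the IL-5 index, 30 min against pre-stimulation had 1 lower with TMM factors, both indexes' pre-stimulation cells, the first date or 1 cell less. Activated against pre-stimulation had 3 higher with the pseudocount. Silent against pre-stimulation had 2 lower with each cell weighing equally, both indexes' pre-stimulation cells or 1 cell less. For 30 min against activated, 2 were higher on the second date, and 0 lower on the first date, with all transition cells or with the A1 genes summed. Activated against silent had 1 higher on the second date or with 1 cell less, and 6 lower on the first and 1 on the second date.

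The 12 changes of sign of values past 2-fold were these. In the IL-13 index, silent against pre-stimulation, Bcl2l11 ranged from -3.87 to 3.45 without 1 cell and Mcl1 0.16 on the first date. Activated against silent, Bcl2l1 was -0.20 and Bcl2a1b -1.06 on the first date, and Bcl2a1b ranged from -1.24 to 2.25 without 1 cell. In the IL-5 index, with both indexes' pre-stimulation cells, Bcl2l11 was -3.38 in activated and -2.10 in silent cells. For 30 min against activated, Bcl2 ranged from -0.69 to 3.07 without 1 cell, and Bcl2a1b -0.80 on the second date and -0.51 with the A1 genes summed. Activated against silent, Bcl2l11 was 2.31 on the second date and ranged from -4.03 to 2.43 without 1 cell. Over all genes averaging 50 CPM or more in place of 10, the share past 2-fold in the IL-5 index was 16.7% in place of 25.2% (lower at 30 min than in activated cells) and 14.7% in place of 22.5% (higher in activated than in silent cells). In shares of cells with a read, 237 values stayed and 3 moved, with at least 5 reads required.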
